A study of Mus musculus with 14 samples.

Results

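After epiblast stem cells (EpiSC) were reverted with the MLL1 inhibitor MM401, 87 mouse genes stood above their level in both references, untreated EpiSC and embryonic stem cells (ESC). They were chosen by measured level from a table of 24015 genes. Each count was divided by the total of its library (CPM) and averaged over the 2 libraries of a group. A gene was a member when the lowest mean among 4 groups, MM401 day 3, rES p6, rES p30 and rES p30 without MM401, was at least 10 CPM and at least 2 times the higher of the ESC and EpiSC means. The 87 genes made up 0.362% of the table and 0.943% of the 9221 genes with at least 10 CPM in all 4 groups. The differences that chose them are given as a description, with no test.

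The study compared 14 RNA-seq libraries, 2 in each of 7 groups, which its design text calls biological duplicates. ESC (mESf, CD1/JF1) grew with LIF and 15% KSR on feeder cells, and EpiSC (9FEpi, CD1/JF1) in Knockout DMEM with 20% KSR and 10 ng/ml bFGF. MM401 day 3 and MM401 P2 were EpiSC given 100 µM MM401 for 3 days, or for 6 days up to passage 2, in KSR medium with LIF. Replicate 2 of P2 is titled P2b and the other P2, so whether the libraries share a culture or passage is unknown, and every P2 value rests on this pair. The rES groups were reverted cells at passage 6 and passage 30, kept on 25 µM MM401 after passage 3, and passage 30 cells grown without MM401. LIF medium and the inhibitor came together, so their parts in a difference from EpiSC cannot be told apart. The rES groups carry the genotype CD1-deltaTSIX/JF1, which neither reference has, so genotype and reversion cannot be told apart in those groups either, while the day 3 and P2 cells are CD1/JF1. Whether cells other than the ESC lay on feeder cells was not stated in the sources used here.

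Libraries held 20831588 to 23677089 counts, except for day 3 (113221270 and 116086115) and P2 (74952496 and 80383376), so counting error was smallest in the inhibitor series. The naive markers Zfp42, Tfcp2l1, Esrrb, Klf4 and Tbx3 summed to 509 to 522 CPM in EpiSC and to 1813 CPM or more in every other library. Within this sum, Zfp42 had means of 82.1 to 102 CPM in the rES groups, against 267 CPM in ESC and 20.8 CPM in EpiSC. The primed markers Fgf5, Dnmt3b, Sox11 and Zic2 summed to 1015 to 1028 CPM in EpiSC and to 621 to 624 CPM in ESC. Dnmt3b and Sox11 were highest in EpiSC, whereas Fgf5 (20.8 against 8.32 CPM) and Zic2 (239.9 against 194 CPM) were higher in ESC than in EpiSC. The P2 libraries stood apart in fibroblast markers: the 23 markers of feeder fibroblasts summed to 29042 to 30208 CPM there, against 4761 to 15546 CPM in the other groups. In P2, 19 of the 23 markers had their highest mean, among them Col1a1 at 3022 CPM against 924 CPM in EpiSC, and no marker was at 0 in any group. In bulk RNA, fewer cells of a type and less RNA per cell cannot be told apart.

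EpiSC are pluripotent cells of the primed kind, which match the epiblast after implantation and are kept by FGF and activin. ESC are naive, match the epiblast before implantation, and are kept by LIF, which acts through STAT3 on a network that includes Nanog, Klf4 and Tfcp2l1. The histone methyltransferase MLL1 (Kmt2a) places active marks at promoters, and MM401 blocks its work with its partner WDR5. Some genes of the naive network, such as Prdm14 and Nanog, also act in the germ line, and a number of germ-line genes are read at a low level in ESC.

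The promoters of the 3 members with the largest ratio that have an entry in the RefSeq table (GRCm38.p6) are shown, since these are the genes that the 4 groups set furthest from both references. Each is the 250 bases before the annotated start, written 5′ to 3′ on the gene's strand, with capitals marking a match on either strand to a motif searched. The Crygc stretch is chr1:65073533-65073782 on the minus strand, Kank4 is chr4:98817538-98817787 on the minus strand, and Col9a2 is chr4:121039316-121039565 on the plus strand.
Crygc: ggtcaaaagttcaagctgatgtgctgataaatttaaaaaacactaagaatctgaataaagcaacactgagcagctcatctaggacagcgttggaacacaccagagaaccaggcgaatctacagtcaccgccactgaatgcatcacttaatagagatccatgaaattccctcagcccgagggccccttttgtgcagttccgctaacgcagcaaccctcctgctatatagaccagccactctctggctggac
Kank4: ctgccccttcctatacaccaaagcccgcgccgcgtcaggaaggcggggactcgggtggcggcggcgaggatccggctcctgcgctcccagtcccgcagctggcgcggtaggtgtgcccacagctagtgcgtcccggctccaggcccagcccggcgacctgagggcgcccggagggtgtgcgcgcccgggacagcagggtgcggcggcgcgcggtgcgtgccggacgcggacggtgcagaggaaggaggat
Col9a2: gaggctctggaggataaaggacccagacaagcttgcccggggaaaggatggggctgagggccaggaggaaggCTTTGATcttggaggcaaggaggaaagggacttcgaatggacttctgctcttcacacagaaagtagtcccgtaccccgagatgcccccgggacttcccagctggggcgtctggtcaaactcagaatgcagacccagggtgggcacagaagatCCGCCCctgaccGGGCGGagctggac
No motif searched lay in the Crygc or Kank4 stretch. The Col9a2 stretch held 3 matches, 1 to CTTTGAT (TCF) and 2 to the GC box GGGCGG, of which 1 is on the other strand and reads CCGCCC.

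Of the 87 members, 68 had a promoter entry, and motifs were counted on both strands in the window from 250 bases before to 50 bases after the start, beside the 11944 tested genes with an entry. GC boxes lay in 60.3% of member windows and 61.3% of all windows, CCAAT (NF-Y) in 38.2% and 38.1%, CACGTG (E-box) in 8.82% and 9.90%, and TATAAA in 7.35% and 7.81%. The STAT motif TTCNNNGAA was in 2.94% of member windows against 6.90% of all, the octamer ATTTGCAT in 0 of 68 against 1.47%, and TCAAGGTCA (Esrrb) in 1.47% against 0.260%, which is 1 member. TGACTCA (AP-1) was in 4.41% against 3.85%, TGACGTCA (CRE) in 1.47% against 3.04%, CTTTGAT in 1.47% against 2.5%, and CCGGAAGT (Ets) in 5.88% against 7.07%. With 68 windows, 1 window is 1.47%, and these shares are a description of the letters only.

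The 87 genes together held 0.850% to 0.924% of all counts in the libraries of the 4 groups, 0.299% and 0.300% in ESC, and 0.197% and 0.199% in EpiSC. In each of the 87, every library of the 4 groups lay above every reference library, and 71 of the 87 passed both limits in every library. The rule's 2-fold gap between means, with duplicates very alike, left little room for overlap. These counts describe the choice, and the same count over all genes was not made. The ratio of the lowest of the 4 means to the higher reference had a median of 2.49. It was under 2.5 in 47 members, 3 or more in 24 and 5 or more in 10. The higher reference was ESC for 66 members and EpiSC for 21. The lowest of the 4 groups was day 3 for 44 members, rES p6 for 19, rES p30 without MM401 for 13 and rES p30 for 11. For 33 members the higher reference was itself under 10 CPM.

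**Figure D1:**
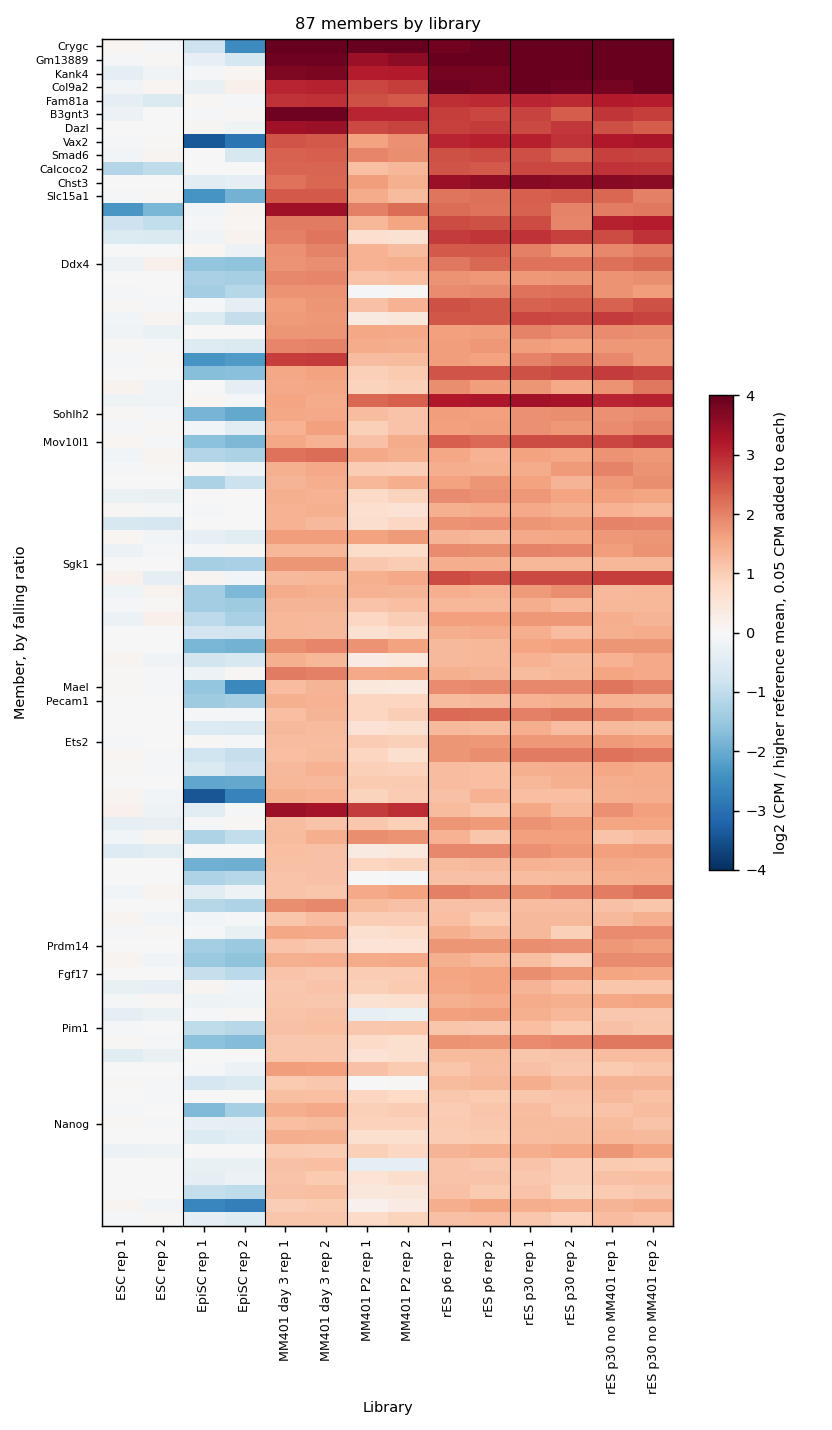
Each line is 1 of the 87 members, ordered by falling ratio, and each column 1 of the 14 libraries; colour gives log2 of CPM over the higher reference mean, with 0.05 CPM added to each and the scale limited to 4 in either direction. Names are printed for the 12 largest ratios and the members on a gene list. The reference libraries are near or below 0, the 8 libraries of the 4 groups are above it in every line, and the P2 libraries lie mostly between.

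The members with the largest ratios include genes known from lens, cartilage, eye, gut and germ cells, and an inhibitor of BMP signals. Crygc, which codes for a gamma-crystallin of the eye lens, had the largest ratio at 17.2. Its levels in CPM were 0.799 and 0.713 in ESC, 0.402 and 0.0902 in EpiSC, 28.2 and 28.8 in day 3, 20.2 and 21.6 in P2, 11.6 and 14.4 in rES p6, 15.8 and 12.7 in rES p30, and 15.0 and 15.9 in rES p30 without MM401. It was close to absent in both references, with 9 and 2 counts in the EpiSC libraries, and highest on day 3. Gm13889 had a ratio of 15.0 and levels in CPM of 2.93 and 3.09 in ESC, 2.37 and 1.85 in EpiSC, 45.1 and 45.1 in day 3, 32.8 and 36.3 in P2, 77.5 and 76.0 in rES p6, 76.8 and 57.1 in rES p30, and 97.8 and 96.4 in rES p30 without MM401. In this gene the 3 rES groups, and not day 3, were highest, and the replicates of rES p30 were further apart than those of the other groups. Gm13889 shares its strand and some of its sequence with the annotated gene Gm27027, so its reads may be split between them.

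Kank4, a cytoskeletal adaptor of the Kank family, had a ratio of 13.6. Its CPM values were 2.84 and 3.42 in ESC, 3.53 and 3.97 in EpiSC, 50.3 and 51.5 in day 3, 33.7 and 34.1 in P2, 54.2 and 53.6 in rES p6, 65.4 and 61.2 in rES p30, and 60.7 and 62.9 in rES p30 without MM401. No reverted library overlapped the references, which were both low. Col9a2, a chain of the cartilage collagen IX, followed with 8.36 and read, in CPM, 9.90 and 11.3 in ESC, 8.70 and 12.2 in EpiSC, 87.1 and 90.2 in day 3, 67.7 and 72.8 in P2, 157 and 151 in rES p6, 178 and 159 in rES p30, and 151 and 175 in rES p30 without MM401. The rES libraries were all above the day 3 libraries for Col9a2. Fam81a (ratio 7.57) was, in CPM, at 4.75 and 4.23 in ESC, 6.56 and 6.04 in EpiSC, 47.2 and 48.2 in day 3, 36.9 and 34.4 in P2, 49.3 and 49.7 in rES p6, 52.1 and 49.9 in rES p30, and 57.5 and 56.2 in rES p30 without MM401, with the reverted groups close together. B3gnt3, a glycosyltransferase that extends sugar chains, had a ratio of 5.95 and CPM values of 4.84 and 5.70 in ESC, 5.49 and 6.00 in EpiSC, 85.5 and 85.1 in day 3, 47.5 and 48.1 in P2, 39.2 and 36.9 in rES p6, 37.6 and 30.8 in rES p30, and 41.9 and 39.2 in rES p30 without MM401, with day 3 above all others.

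Vax2, a homeobox factor of the ventral eye, had a ratio of 5.66 and read, in CPM, 5.02 and 5.32 in ESC, 0.446 and 0.631 in EpiSC, 29.6 and 28.8 in day 3, 16.0 and 18.5 in P2, 43.4 and 45.2 in rES p6, 44.6 and 38.4 in rES p30, and 48.2 and 50.1 in rES p30 without MM401. ESC lay between EpiSC and the reverted cells. Calcoco2, an autophagy receptor, had a ratio of 5.02 and was higher in EpiSC than in ESC, with CPM values of 9.19 and 10.2 in ESC, 21.0 and 20.7 in EpiSC, 105 and 104 in day 3, 48.0 and 52.2 in P2, 119 and 114 in rES p6, 134 and 133 in rES p30, and 155 and 151 in rES p30 without MM401. Chst3, which sulfates chondroitin, had a ratio of 4.80, and Slc15a1, the peptide transporter of the gut, of 4.54. Chst3 was at 22.6 and 24.7 CPM on day 3 and at 54.4 to 62.5 CPM in the rES libraries, while its highest reference library had 4.97 CPM. Slc15a1 was at 27.1 to 37.0 CPM in the 8 libraries of the 4 groups, against 6.35 and 6.94 CPM in ESC and 1.76 CPM or less in EpiSC.

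**Figure D2:**
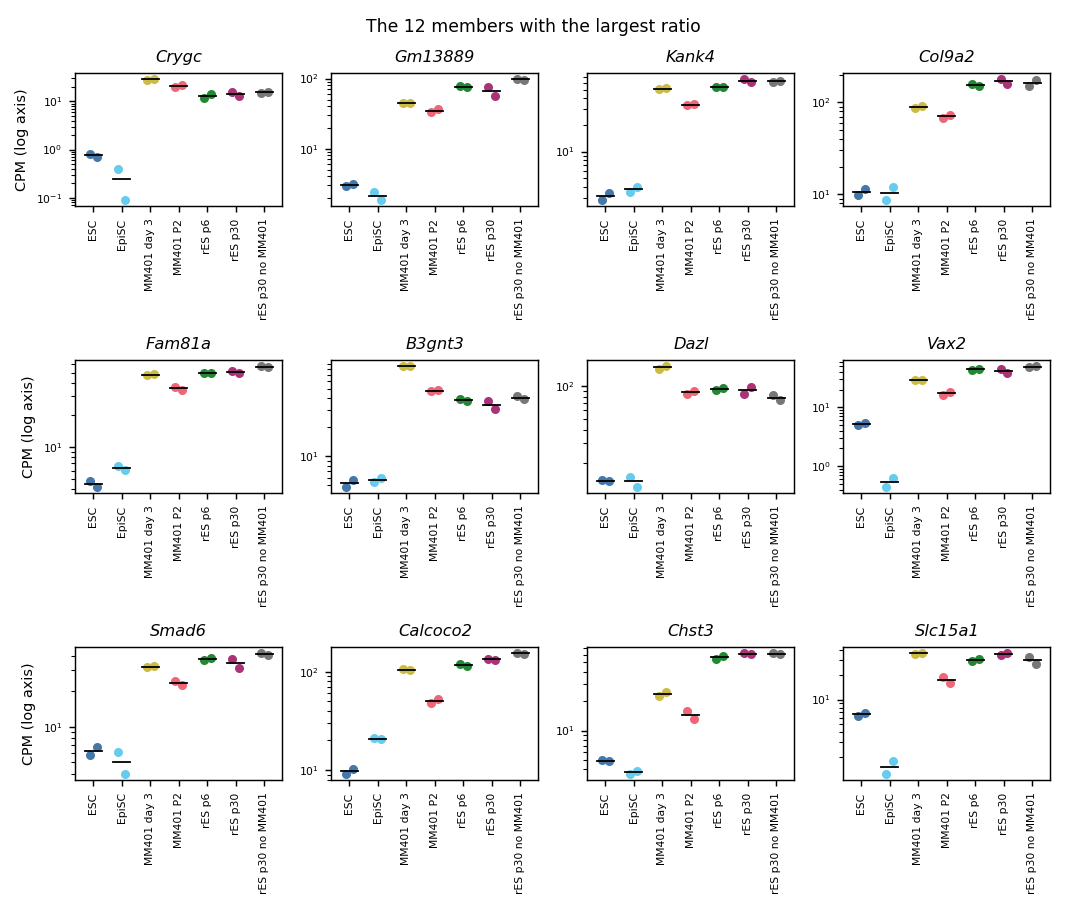
CPM per library on a log axis for the 12 members with the largest ratio, by group, with a bar at the mean of each group's 2 libraries. In all 12 the day 3 and rES points lie above both references, and the P2 points lie above the references as well.

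The germ line gave 5 members. These are on the list of germ-line and meiosis genes, which has 37 genes found in the table, and 16 of the 37 had the lowest of the 4 means above both references, as had 12.8% of the 16247 genes tested. Dazl, an RNA-binding protein needed in germ cells, had the largest ratio of them, 5.69, with CPM values of 13.8 and 13.7 in ESC, 15.0 and 12.1 in EpiSC, 144 and 152 in day 3, 85.4 and 89.9 in P2, 92.0 and 95.2 in rES p6, 85.3 and 98.1 in rES p30, and 82.3 and 74.4 in rES p30 without MM401. Its references overlapped, and day 3 was higher than the rES groups. Ddx4, the germ-cell RNA helicase known as Vasa, was, in CPM, at 4.66 and 6.22 in ESC, 1.79 and 1.76 in EpiSC, 19 and 19.7 in day 3, 14.4 and 15.0 in P2, 23.5 and 26.7 in rES p6, 24.6 and 24.6 in rES p30, and 25.3 and 27.0 in rES p30 without MM401. It was lowest in EpiSC, higher in ESC and highest in the rES groups, without overlap between these. Sohlh2, a transcription factor of early germ cells, read, in CPM, 43.0 and 40.9 in ESC, 11.5 and 10.0 in EpiSC, 123 and 119 in day 3, 99.2 and 93.3 in P2, 132 and 129.7 in rES p6, 150.3 and 152 in rES p30, and 151 and 155 in rES p30 without MM401, and all reverted libraries were at 93.3 CPM or more while no reference library exceeded 43.0 CPM. Mael and Mov10l1 both act in the piRNA pathway, which silences transposons in the germ line. Mael was at 15.9 to 30.2 CPM in the 4 groups, at 7.06 and 6.46 CPM in ESC, and at 2.28 and 1.08 CPM in EpiSC. Mov10l1 was at 9.71 to 26.2 CPM in the 4 groups, at 3.91 and 3.52 CPM in ESC and at 1.16 and 1.04 CPM in EpiSC. Rnf17, a Tudor-domain protein of male germ cells that is not on the list, had 101 and 105 CPM on day 3 and 197 to 243 CPM in the rES libraries, against 35.3 and 33.9 CPM in ESC.

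Of the naive pluripotency list, 3 of the 28 genes in the table were members (Nanog, Prdm14 and Pecam1), and 13 of the 28 had the lowest of the 4 means above both references, beside the same 12.8% of genes tested. For the other lists with members the counts were 5 of 16 (LIF and STAT3), 2 of 23 (FGF and ERK) and 1 of 20 (trophectoderm). All these counts use the values that the rule used, and they were not tested. Nanog, a core factor of naive cells, had the highest group mean of the 87 members (937 CPM, in rES p30), with CPM values of 407 and 384 in ESC, 315 and 309 in EpiSC, 910.1 and 960.0 in day 3, 742 and 755 in P2, 812 and 829.5 in rES p6, 942 and 932 in rES p30, and 956 and 865 in rES p30 without MM401. The lowest reverted library (742 CPM, in P2) was above the highest ESC library (407 CPM). Prdm14, a transcriptional repressor that acts in naive cells and in primordial germ cells, read, in CPM, 58.7 and 58.7 in ESC, 22.9 and 20.7 in EpiSC, 130.5 and 125 in day 3, 85.5 and 85.6 in P2, 198 and 198 in rES p6, 214 and 209 in rES p30, and 196 and 187 in rES p30 without MM401. The order was EpiSC, ESC, P2, day 3 and then rES, with no overlap of neighbours. Pecam1, an adhesion molecule used as a surface marker of naive cells, was at 206 to 228 CPM in the 4 groups, at 154 CPM in both P2 libraries, at 85.5 and 83.7 CPM in ESC and at 31.4 and 33.7 CPM in EpiSC. Others of the 28 lay below ESC. Zfp42 had means of 82.1 to 102 CPM in the rES groups, against 267 CPM in ESC, although day 3 was at 325 CPM. Utf1 had 193 to 322 CPM in the 4 groups, against 326 CPM in ESC and 455 CPM in EpiSC.

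The LIF and STAT3 list gave 2 members of its 16 genes in the table, the kinases Pim1, a direct STAT3 target, and Sgk1. Of the 16, 5 had the lowest of the 4 means above both references, beside 12.8% of the genes tested, and others went the other way. Among the 5, Jak1 was barely above, with a lowest mean of 130 CPM on day 3 against 129 CPM in EpiSC. Socs3 had means of 90.8 to 129 CPM in the 4 groups, against 162 CPM in ESC and 223 CPM in EpiSC. Stat3 had 119 to 140 CPM in the 4 groups, against 185 CPM in ESC and 194 CPM in EpiSC. Pim1 was, in CPM, at 133 and 139 in ESC, 67.1 and 63.5 in EpiSC, 305 and 315 in day 3, 285 and 290.5 in P2, 291 and 286 in rES p6, 312 and 279 in rES p30, and 308 and 292 in rES p30 without MM401. All reverted libraries lay within 279 to 315 CPM, ESC lay below them and EpiSC was lowest. Sgk1 read, in CPM, 183 and 184 in ESC, 73.7 and 74.0 in EpiSC, 620.1 and 622 in day 3, 388 and 371 in P2, 505 and 507 in rES p6, 466 and 457 in rES p30, and 463 and 456 in rES p30 without MM401. It was highest on day 3. Fgf17, an FGF ligand, was the member on the FGF and ERK list, with 7.45 and 6.68 CPM in EpiSC, 14 and 14.4 CPM in ESC and 30 to 52.0 CPM in the 4 groups. Ets2, a transcription factor of the trophectoderm list, was at 45.1 to 48.6 CPM in the reference libraries and at 111 to 160.2 CPM in the 4 groups. The inhibitory Smads, which damp BMP and TGF-beta signals, were both members. Smad6 had a ratio of 5.19 and Smad7 one of 2.05, and Smad7 read, in CPM, 131 and 134 in ESC, 109 and 109 in EpiSC, 299 and 308 in day 3, 103 and 103 in P2, 292 and 282 in rES p6, 291 and 260.2 in rES p30, and 275 and 268 in rES p30 without MM401. For Smad7 the P2 libraries were the lowest of all, which set them apart from day 3 and rES. The other 16 lists, among them primed pluripotency, primitive endoderm, cleavage-stage genes, the MLL complex and feeder fibroblast markers, held no member.

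**Figure D3:**
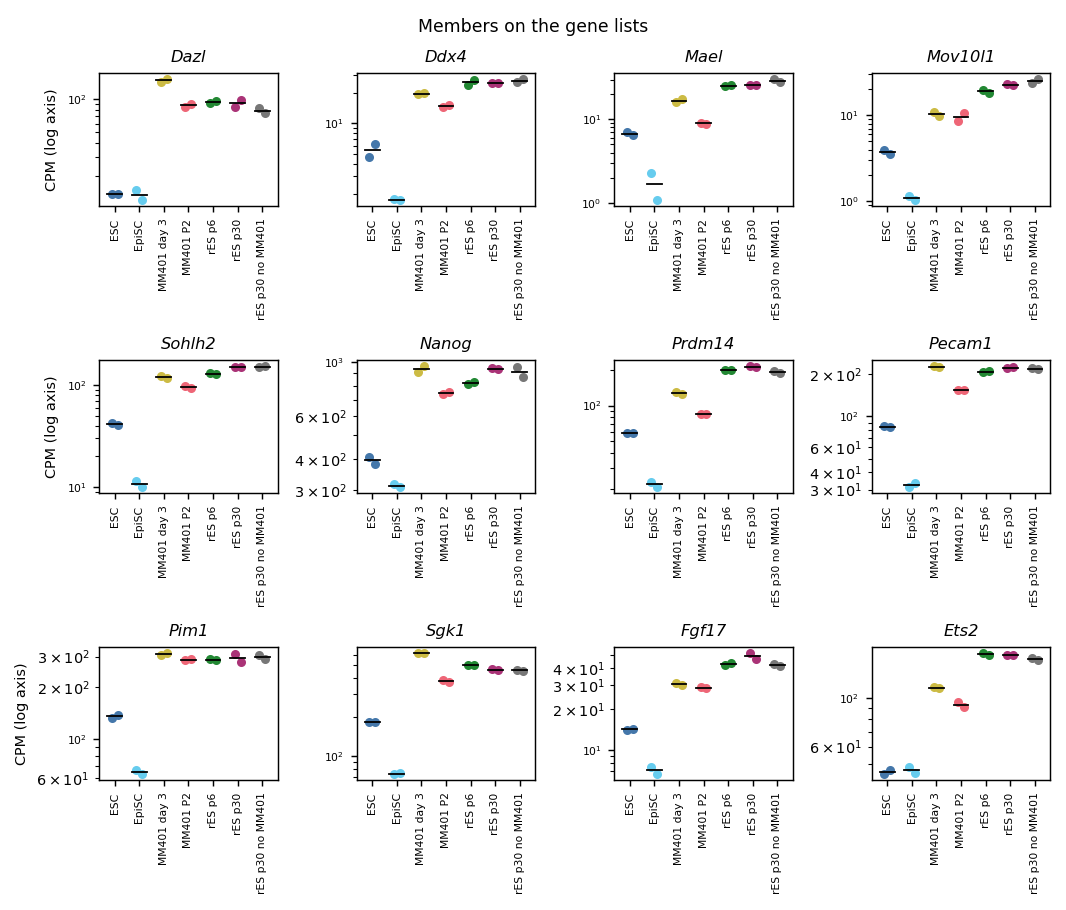
CPM per library on a log axis for the 12 members that are on a gene list, by group, with a bar at the mean of each group's 2 libraries. Dazl and Ets2 have both references at about the same level, while in the other 10 ESC lies above EpiSC and below the reverted groups.

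At the limit on the ratio, the members just inside were Cmtm7 (78.4 against 39.2 CPM), Fkbp6 (13.9 against 6.87 CPM) and Btbd11 (40.4 against 19.9 CPM). Just outside lay Mmp17 (38.1 CPM in its lowest group), Bmp7 (18 against 9.07 CPM) and Cobl (229 against 115.5 CPM). At the limit on the level, Fbxo2 (10.2 CPM), Mov10l1 (10.3 CPM) and AI848285 (10.6 CPM) were inside. The genes 1700003M02Rik (9.70 CPM), Ddx43 (9.55 CPM) and Stk31 (9.47 CPM) were outside.

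Because replicates were averaged by the rule, the rule was also applied to 1 replicate and read in the other. Duplicates were very alike (r of log2 CPM from 0.9986 in rES p30 to 0.9992 in day 3). The reading could therefore hardly fail, and it does not show how far other cultures would match. Applied to replicate 1, it found 85 genes. In replicate 2 all 85 were above both references and 75 passed both limits, with a median ratio of 2.49 and a lowest ratio of 1.83. Applied to replicate 2, it also found 85 genes, of which all 85 were above both references in replicate 1 and 75 passed both limits, with a median ratio of 2.46 and a lowest of 1.36. Of all genes with at least 10 CPM in the 4 groups of a replicate, 15.1% were above both references in it, but these were not chosen by a 2-fold limit. The rule on single replicates shared 82 and 80 genes with the 87 members.

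The P2 libraries took no part in the choice, and they show whether members stood above the references after 6 days of MM401. The reference libraries are shared with the rule, however, and day 3 cells at the same MM401 dose entered it. Both favour members above the references in P2. In P2, 84 of the 87 members had a mean above the higher reference (96.6%), against 31.0% of the 9221 genes with at least 10 CPM in the 4 groups. In 82 members both P2 libraries were above all 4 reference libraries, which held for 26.6% of the 9221. At least 2 times the higher reference was reached by 46 members (52.9%) against 2.59% of the 9221, and the median P2 ratio was 2.02 against 0.840. The members' share of P2 counts was 0.586% and 0.590%, between the references and the 4 groups. The exceptions were Smad7, Zfhx2 and Ak4, a mitochondrial adenylate kinase. Zfhx2, a homeobox factor of neurons, read, in CPM, 36.1 and 38.3 in ESC, 44.6 and 47.1 in EpiSC, 100.5 and 103 in day 3, 36.6 and 37.9 in P2, 144 and 148 in rES p6, 123 and 115 in rES p30, and 97.7 and 97.7 in rES p30 without MM401, and Ak4 read, in CPM, 159.6 and 161 in ESC, 68.2 and 72.0 in EpiSC, 351 and 359 in day 3, 158 and 152 in P2, 361 and 363 in rES p6, 377 and 389 in rES p30, and 427 and 439 in rES p30 without MM401. P2 lay near ESC for both, and below EpiSC for Zfhx2 but above EpiSC for Ak4, while day 3 and rES lay above both references, as the rule required.

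Tested with edgeR over all genes, 85 of the 87 members were higher in P2 than in EpiSC, where 42.1% of the 16247 genes tested were called higher and 33.8% lower. The rule chose members for low EpiSC means and for high day 3 means at the same MM401 dose. Higher P2 values were therefore favoured in advance, and the other genes were not chosen in that way. Of the 9221 genes at the members' level, 47.1% were higher and 35.1% lower. Over all genes 55.5% of the calls were in the higher direction, or 45.3% on total-count scaling, where the members again gave 85 higher calls. The members' median log2 fold change was 2.03, against 0.08 over all genes tested. The largest rise was that of Crygc (log2 fold change 6.53 ± 0.22 (SE), adjusted p = 1.04e-26), and Vax2 rose as well (log2 fold change 5.14 ± 0.17 (SE), adjusted p = 8.99e-27). Gm13889 rose by a log2 fold change of 4.18 ± 0.15 (SE) and Dpp4, a surface peptidase, by 3.74 ± 0.11. At least a 2-fold rise was called for 75 members, against 16.5% of all genes tested. Zfhx2 fell (log2 fold change -0.15 ± 0.05 (SE), adjusted p = 0.00752), and Smad7 was not called at 0.07 ± 0.04 (adjusted p = 0.136). The fall of Zfhx2 was not called without EpiSC replicate 2 (log2 fold change -0.11, adjusted p = 0.135).

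Against ESC, 81 members were higher in P2, where 41.0% of all genes tested were called higher and 33.6% lower, and 45.0% and 37.5% of the 9221 genes. Low ESC means were part of the choice too, which favours higher calls among members and not among the other genes. The median log2 fold change was 1.10 (0.08 over all genes), and 50 members rose at least 2-fold, against 13.6% of all genes. Crygc rose most (log2 fold change 4.77 ± 0.18 (SE), adjusted p = 7.93e-25). Foxn4, a forkhead factor of the retina, rose by 4.27 ± 0.18 on the log2 scale, Gm13889 by 3.51 ± 0.14, Kank4 by 3.43 ± 0.10 and B3gnt3 by 3.18 ± 0.09. Smad7 fell (log2 fold change -0.38 ± 0.04 (SE), adjusted p = 1.29e-10). Not called were Slc13a5, Zfhx2, Ak4, Smtnl2 and Fkbp6. The 81 members higher than ESC were all higher than EpiSC too, and 25.0% of all genes tested were called higher than both. Among the 9221 genes at the members' level, that share was 27.7%. The fibroblast markers moved with P2 (29042 to 30208 CPM, against 11214 to 15546 CPM in the references), and their part in these differences was not tested.

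The lists that hold members moved in P2 as follows against EpiSC. Of 28 naive pluripotency genes tested, 24 were higher and 2 lower, with a median log2 fold change of 1.99. Beside the members these included Tcl1 (4.29 ± 0.06), Tfcp2l1 (3.64 ± 0.04), Zfp42 (3.44 ± 0.05) and Fbxo15 (2.67 ± 0.04). Of 36 germ-line genes tested, 23 were higher and 3 lower (median 0.84). Tex14, a bridge protein of germ cells, rose by 2.66 ± 0.08 and the ribosomal protein gene Rpl10l by 2.65 ± 0.07, the receptor gene Kit by 2.14 ± 0.05, and the piRNA factor Tdrkh fell by 2.48 on the log2 scale. Of 16 LIF and STAT3 genes, 12 were higher and 4 lower (median 1.15), with Klf4 at 1.77 ± 0.04, Pim3 at 1.73 ± 0.04 and Bcl3 at 1.37 ± 0.05. Of 23 FGF and ERK genes 6 were higher and 14 lower (median -0.31), so the member Fgf17 (2.17 ± 0.08) rose on a list with more falls. On that list the immediate early genes Fos and Egr1 fell by 4.23 and 2.41, Il17rd fell by 2.25 and the ligand Fgf4 rose by 2.29 ± 0.04. Of 17 trophectoderm genes 8 were higher and 7 lower (median 0.45). Tfap2c rose by 1.65 ± 0.05, and the keratin genes Krt19, Krt18 and Krt8 fell by 3.20, 2.85 and 2.70. Against ESC the naive list went the other way from its members: 7 of 28 were higher and 18 lower (median -0.42), while Nanog (0.91 ± 0.04), Pecam1 (0.86 ± 0.04) and Prdm14 (0.54 ± 0.05) rose. So did the FGF and ERK list (6 of 23 higher, 17 lower), while Fgf17 rose (1.01 ± 0.07). Of 17 trophectoderm genes 2 were higher and 13 lower (median -1.55), while Ets2 rose (1.01 ± 0.05). Of 36 germ-line genes 17 were higher and 13 lower, and of 16 LIF and STAT3 genes 8 and 6.

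**Figure D4:**
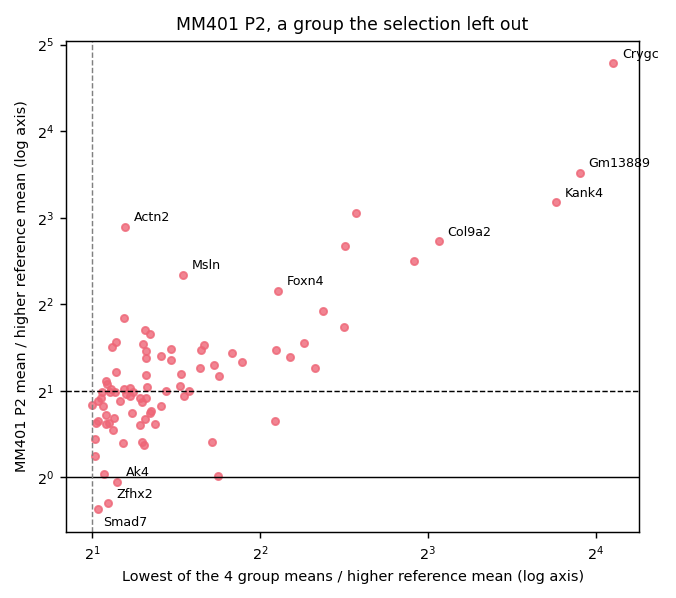
Each point is 1 member: the ratio that chose it, the lowest of the 4 means over the higher reference (horizontal, log axis), and the P2 mean over the same reference (vertical, log axis). Both axes share the reference; 84 of the 87 points are above a P2 ratio of 1, and Smad7, Zfhx2 and Ak4 are below it.

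Between day 3 and P2, 77 members were lower, 3 higher and 7 not called. Day 3 is 1 of the 4 groups whose high means chose the members and P2 is not, so the choice itself favours lower values in P2, and the shares over other genes were not chosen in that way. Of all genes tested 33.3% were called lower and 37.5% higher, and of the 9221 genes at the members' level 47.7% and 31.6%. The median log2 fold change of the members was -0.52, against 0.04 over all genes. The citrate transporter gene Slc13a5 fell most (log2 fold change -1.83 ± 0.07 (SE), adjusted p = 5.45e-25), from 32.9 and 33.0 to 9.15 and 9.78 CPM. Smad7 fell by 1.59, Dpp4 by 1.55, Zfhx2 by 1.48 and the tubulin gene Tuba3b by 1.46. A fall of at least 2-fold was called for 12 members, against 2.32% of all genes. Msln, the surface protein mesothelin, rose (log2 fold change 0.78 ± 0.05 (SE), adjusted p = 1.09e-17), from 31.7 and 30.1 to 52.5 and 55.4 CPM, and so did the ligand gene Fgf1 (0.45 ± 0.09) and Rab7l1 (0.40 ± 0.08). The fibroblast markers were at 11064 to 11065 CPM on day 3 and 29042 to 30208 CPM in P2, and the naive markers at 2799 to 2809 and 1813 to 1906 CPM. Their part in this result was not tested.

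The means of ESC and EpiSC both entered the rule, through whichever was higher, so their comparison is made on chosen values and is set beside genes not chosen in that way. Of the members 62 were higher in ESC and 9 lower, where 37.0% of all genes tested were called higher and 37.5% lower, and 43.3% and 39.4% of the 9221 genes at the members' level. The median log2 fold change was 0.60 (0.00 over all genes), and 34 members were at least 2-fold higher, against 14.3% of all genes. Vax2 led (log2 fold change 3.41 ± 0.24 (SE), adjusted p = 6.11e-16), and high among the others were the germ-cell gene Fkbp6 (2.89 ± 0.19), Dpp4 (2.49 ± 0.14) and Slc15a1 (2.29 ± 0.20). Among the 9 that were lower were Foxn4 (log2 fold change -1.96 ± 0.27 (SE), adjusted p = 1.87e-08), Calcoco2 (-0.95 ± 0.08), AI848285 (-0.76 ± 0.27), Tmem151b (-0.52 ± 0.15) and Sema5b (-0.35 ± 0.09). On total-count scaling, which shifts the median of all genes to -0.15, 49 members were higher and 14 lower. AI848285 was not called without EpiSC replicate 2 or without ESC replicate 2 (-0.67 and -0.69, adjusted p = 0.0718 and 0.0738). Primitive endoderm markers stood at 8046 to 8069 CPM in ESC and 2711 to 2731 CPM in EpiSC, and their part in this result was not tested.

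Day 3 cells and rES p6 cells differed in many members. The comparison was added after the data were seen, both groups entered the rule, and their genotypes differ. Of the members 38 were higher in rES p6, 26 lower and 23 not called, where 36.8% of all genes tested were called higher and 32.3% lower, and 36.3% and 41.9% of the 9221 genes. The median was 0.06 (0.04 over all genes). At least 2-fold higher, as 12% of all genes, were 3 members: Msln (log2 fold change 1.64 ± 0.05 (SE), adjusted p = 1.92e-27), Chst3 (1.20 ± 0.07) and the phosphatase gene Mtm1 (1.20 ± 0.07). Next came A830080D01Rik (0.91 ± 0.05) and Rnf17 (0.89 ± 0.04). At least 2-fold lower, as 5.34% of all genes, were 5: the muscle actinin gene Actn2 (log2 fold change -2.24 ± 0.09 (SE), adjusted p = 1.72e-22), Foxn4 (-1.25 ± 0.09), B3gnt3 (-1.21 ± 0.06), Dpp4 (-1.19 ± 0.06) and Crygc (-1.18 ± 0.10). Actn2 was at 65.7 and 62.0 CPM on day 3 and 43.1 and 48.0 CPM in P2, against 13.1 to 21.8 CPM in the rES libraries and 4.55 to 6.97 CPM in the references. Dazl (-0.71 ± 0.06) was lower in rES p6, and Ddx4 (0.33 ± 0.08), Mael (0.56 ± 0.09) and Mov10l1 (0.84 ± 0.10) were higher.

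The rES p6 and p30 groups both entered the rule, which sets no direction between them but requires both to pass its limits. A gene that fell below the limits in either group was left out, so the choice limits large differences among members. With edgeR 27 members were higher at passage 30, 9 lower and 51 not called, where 11.3% of all genes tested were called higher and 14.4% lower, and 17.7% and 15.4% of the 9221 genes at the members' level. The members' log2 fold changes ran from -0.54 to 0.43, and 0 of the 87 were called at least 2-fold in either direction, where 0.111% of all genes were 2-fold higher and 2.41% 2-fold lower. With RLE scaling 35 were higher and 6 lower; over all genes the share of calls that were higher was 43.9%, but 54.3% with RLE scaling and 33.3% with total counts. Dpp4 rose (log2 fold change 0.43 ± 0.07 (SE), adjusted p = 2.22e-06), as did Fgf1 (0.42 ± 0.11), the cadherin gene Fat2 (0.40 ± 0.10), the oocyte gene Nlrp4f (0.32 ± 0.07) and Slc13a5 (0.31 ± 0.07). Nanog rose as well (0.22 ± 0.04, from 812 and 829.5 to 942 and 932 CPM). Tmem191c fell (log2 fold change -0.54 ± 0.10 (SE), adjusted p = 5.35e-05), as did the RNase gene Zc3h12a (-0.27 ± 0.07), Zfhx2 (-0.26 ± 0.05), Rgcc (-0.24 ± 0.08) and Tcf15 (-0.20 ± 0.07). The counts rested on single libraries: without rES p6 replicate 1 they were 17 higher and 3 lower, without rES p6 replicate 2 they were 14 and 4, and without rES p30 replicate 2 only 3 were lower, as with DESeq2, while the call of Tcf15 was lost in each of these. Fibroblast markers were at 10608 to 10635 CPM at passage 6 and 5606 to 5728 CPM at passage 30, and their part in this result was not tested.

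Cells grown without MM401 were also above both references: the 87 members had means of at least 10 CPM and 2 times both references there, as the rule required. Against rES p30 with MM401, 19 members were higher, 13 lower and 55 not called, where 10.4% of all genes tested were called higher and 9.3% lower, and 16.7% and 13.9% of the 9221 genes at the members' level. The members' log2 fold changes ran from -0.48 to 0.79, and 0 of the 87 were called at least 2-fold, near the 0.105% of all genes that were 2-fold higher and the 0.166% that were 2-fold lower. Since both groups had to pass the limits of the rule, the choice itself limits large differences here. AI848285 rose most (log2 fold change 0.79 ± 0.12 (SE), adjusted p = 1.23e-05), from 15.2 and 9.71 to 21.3 and 22.0 CPM. Rgcc, a regulator of the cell cycle, rose (log2 fold change 0.76 ± 0.08 (SE), adjusted p = 2.16e-09), from 24.0 and 21.0 to 38.6 and 38.2 CPM. Tcf15, a factor linked in ESC to the first step out of the naive state, rose from 72.6 and 57.9 to 109.8 and 112 CPM (log2 fold change 0.75 ± 0.07 (SE), adjusted p = 8.91e-09). For Rgcc and Tcf15 both libraries without MM401 were above every other library of the series. Gm13889 (0.52 ± 0.08) and Nup62cl (0.30 ± 0.07) rose too. Fat2 (-0.48 ± 0.11), Fgf1 (-0.47 ± 0.11), Slc13a5 (-0.45 ± 0.07), the muscle gene Mypn (-0.34 ± 0.09) and Zfhx2 (-0.29 ± 0.05) fell. Fat2, Fgf1 and Slc13a5 had risen from passage 6 to 30, and Rgcc and Tcf15 had fallen. Both comparisons share the rES p30 libraries, so the values of those libraries bear on all 5 changes. Without rES p30 replicate 2, or without replicate 1 of the cells grown without MM401, 11 members were higher, and without replicate 2 of the latter 5 were lower. DESeq2 called 12 higher. The library rES p30 replicate 2 also held the most ribosomal precursor Rn45s (2.00% of counts), and its part in this result was not tested.

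**Figure D5:**
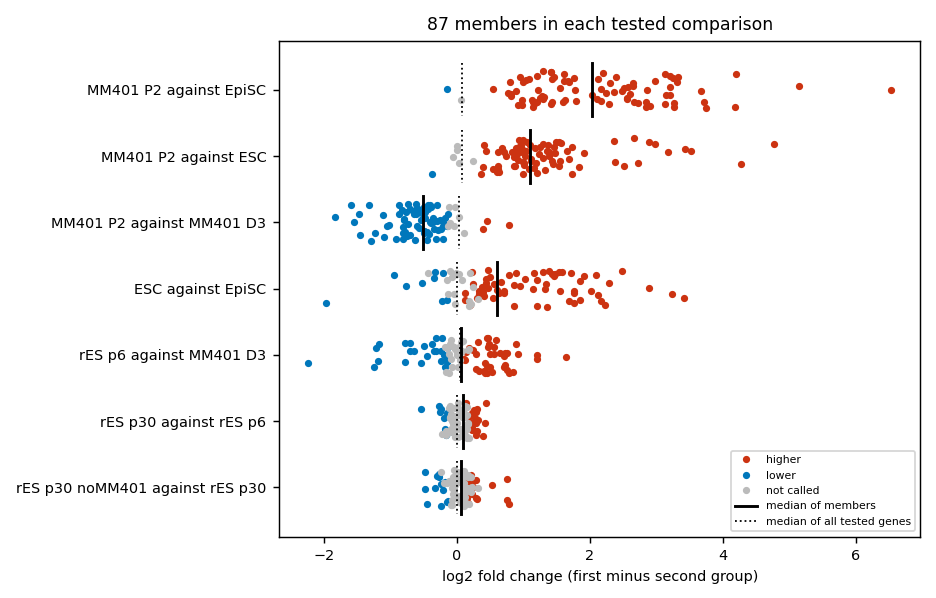
Log2 fold changes of the 87 members in each tested comparison, 1 point per member, with the median marked. The comparisons with P2 above the references spread widely above 0, P2 against day 3 lies mostly below 0, and the 2 comparisons among rES p30 and p6 lie between -0.54 and 0.79.

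The 86 members matched to RefSeq lay on every autosome and on X, with 8 each on chromosomes 4 and 9 (9.20% of members each, against 6.30% and 5.61% of genes tested), 7 on chromosome 14 (8.05% against 3.38%) and 4 on X (4.6% against 3.74%). In the RefSeq order of coding genes, 6 pairs of members were direct neighbours, and 11 members took part in them: Dmtn and Fgf17, Ak4 and Dnajc6, Acacb and Foxn4, Tmem231 and Gabarapl2, and the run P4htm, Arih2 and Slc25a20. Such pairs were not counted among other genes, so whether 6 is many was not tested. Slc13a5 and Smtnl2 had 3 coding genes between them. Annotated transcripts alike over at least 30% of their length at 95% identity or more were found for 5 members. Tuba3a and Tuba3b were alike at 96.5%, and Arih2, Calcoco2 and Sh3bp1 each resembled a gene that is no member, so the levels of these 5 are uncertain. A gene on the opposite strand overlapped 24 members, among them Kank4, Vax2, Zfhx2, Dpp4 and Pim1, and a coding gene overlapped 5 (Tmem191c, Tmem151b, 8430427H17Rik, Fgf1 and 2410076I21Rik). The sources used here do not state the strand of the counting, so reads of these genes and their partners cannot be told apart.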

How the data were processed

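Members and gene lists were chosen with earlier results of these data known. The authors deposited raw read counts for 24015 gene symbols; TopHat2, Subread, DESeq and mm9 are listed, without versions or roles, per the submitters' processing notes. Per the labels' protocols, RNA from RNeasy columns with DNase went into TruSeq single-end libraries. How reads that map to several places were counted was not stated. The 2 columns that match no label were left out, and 27 gene names appear as dates (at most 0.254% of a library's counts).

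CPM were computed on column totals for the rule. For tests, 16247 genes passed filterByExpr, which all 87 members did because the rule demands 10 CPM. Counts were scaled with TMM and tested in edgeR 4.0.16 (R 4.3.3; quasi-likelihood F test, robust) on all 14 libraries, with 1 mean per group. Calls had a Benjamini-Hochberg adjusted p under 0.05 over all genes tested, two-sided, and "rose", "fell", "higher" and "lower" in tests mean called. Errors (SE) of log2 fold changes are their size over the square root of F. The p-values cover the spread among these libraries alone, since the labels do not say what separates duplicates. In units of counting error, the mean squared difference of duplicates was 1.28 in ESC, 1.35 in rES p6 and 1.54 in EpiSC. It was 3.22 in rES p30 without MM401, 7.68 in day 3, 8.84 in P2 and 16.6 in rES p30. Some pairs thus differed by little more than counting error, and the fit shares the spread over all of them. Alternatives were RLE and total-count scaling, no filter, DESeq2 1.42.0, fits of 4 libraries, a replicate block, single libraries left out and other limits in the rule. The test was tried on simulated counts first.

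Named were the 12 largest ratios, the genes next to each limit, up to 5 called members with the largest rise and fall per comparison, members on a list, and up to 4 other genes of such a list by adjusted p. Smad6 and Smad7 as a pair, Rnf17, the members not called, neighbours and overlapping genes were named after their values were seen. So were the list genes Socs3, Stat3, Jak1, Utf1, Tktl1 and Xlr3b. Neighbours and promoters are from RefSeq (GRCm38.p6), matched by symbol or synonym for 86 members, and similar or overlapping transcripts from GENCODE M21. Gene coordinates are left out because the files use mm9. Some items that these rules select are not reported here.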

Additional observations from a re-analysis of the deposited data

Results flagged for a closer look

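Zfhx2 and Smad7 stood out because the P2 libraries moved against the day 3 libraries. Zfhx2 was below EpiSC in P2 (log2 fold change -0.15 ± 0.05, edgeR adjusted p = 0.00752), although the day 3 libraries were at 100.5 and 103 CPM and the EpiSC libraries at 44.6 and 47.1 CPM. Smad7 was below ESC in P2 (-0.38 ± 0.04, edgeR adjusted p = 1.29e-10), although day 3 was at 299 and 308 CPM and ESC at 131 and 134 CPM. The difference between P2 and day 3 was itself tested, although day 3 values had entered the choice of these genes: Zfhx2 was lower in P2 at -1.48 ± 0.04 (edgeR adjusted p = 3.63e-28) and Smad7 at -1.59 ± 0.04 (edgeR adjusted p = 4.98e-31) on the log2 scale. In rES p6 both were above the references again, Zfhx2 at 144 and 148 CPM and Smad7 at 292 and 282 CPM. Zfhx2 overlaps an antisense gene, Zfhx2os, and the strand of the counting was not stated. With 2 libraries a group, single libraries could not be tested for distance from the rest.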

How the results depend on the processing

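The number of members depended on the limits. It was 217 at a ratio of 1.5, 24 at a ratio of 3, and 44 with P2 required as well. Among alternatives chosen after seeing the data it was 308 with the 3 rES groups only, 195 with day 3 only, 188 with ESC as the reference and 498 with EpiSC as the reference. It stayed within 1.5 times of 87 with limits of 5 and 20 CPM (113 and 65), TMM and RLE scaling (97 and 89), every library past the limits (71), and either replicate alone (85 to 85).

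In rES p30 without MM401 against rES p30, DESeq2 called 12 members higher in place of 19, and leaving out 1 library gave 11 to 13 higher and 5 to 12 lower in place of 13. In rES p30 against rES p6, leaving out 1 library gave 14 to 22 higher in place of 27 and 3 to 11 lower in place of 9, and DESeq2 called 3 lower. The 1 member lower in P2 than EpiSC became 0 to 1 without a library. The 1 member lower in P2 than ESC became 2 with RLE scaling, 2 with DESeq2, 2 with only the 4 libraries compared, and 1 to 2 without a library. In ESC against EpiSC, scaling to total counts gave 14 lower in place of 9. The cause of these changes was not tested, and some of the fits also used fewer libraries. Alternatives were read only for the members with the largest rise or fall in a comparison. None of these changed direction: of their values under alternatives, 579 kept their side of the threshold and 21 lost the call.

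Same-numbered replicates did not deviate together (r from -0.03 to 0.04 over 21 pairs of groups), so the numbers were not taken as pairs. With a replicate block, 85 and 81 members were higher in P2 than in EpiSC and ESC, 78 lower than on day 3, 62 higher in ESC than in EpiSC, 26 higher at p30 than at p6 and 18 higher without MM401.

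With 2 libraries a group, changes among the rES groups rest on few degrees of freedom, and counting error is largest for members under 10 CPM in the references.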
